A study of Arabidopsis thaliana with 4 samples.

Results

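The genes described are the small secreted-peptide genes IDL7 (AT3G10930) and IDL6 (AT5G05300), which belong to the INFLORESCENCE DEFICIENT IN ABSCISSION (IDA) family, and the leucine-rich-repeat receptor kinase genes HAE (HAESA, AT4G28490) and HSL2 (HAESA-LIKE 2, AT5G65710). They are 4 of the 20511 gene identifiers in the matrix. They were selected on their measured levels in these cells as a ligand and receptor set, with the genotype difference already known, so their differences between genotypes are given as a description, without a test. The tested plants were lbd6 lbd36 lbd12 lbd15 quadruple mutants of Arabidopsis thaliana (lbd_quad), which carry mutations in 4 LATERAL ORGAN BOUNDARIES DOMAIN (LBD) transcription factor genes, and the others were wild type (WT). All plants were 7 days old when the root tip was cut off, and roots were collected 16 h later, so both genotypes were wounded and no uncut root is among the samples. Each genotype has 2 droplet libraries of protoplasts, cells freed of their walls by enzymes. The labels do not say whether the libraries came from separate batches of plants, so p-values measure only the spread between these libraries.

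IDA peptides are cut from a precursor, leave the cell and bind HAE and HSL2 on the cell surface, with SERK kinases as co-receptors. A MAP kinase cascade of MKK4, MKK5, MPK3 and MPK6 then leads to enzymes that loosen and dissolve the wall between cells. The pathway is best known for the shedding of floral organs. In roots it acts in the separation of cells over an emerging lateral root and, through IDL1 and HSL2, in the sloughing of root cap cells. IDL6 and IDL7 are known as peptides whose transcripts rise under biotic and abiotic stress.

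The active part of the family lies near the end of the precursor, and the bases of 10 codons of it are shown because they set IDL7 and IDL6 apart from IDA and IDL1. The windows were found by a search for codons of proline, serine and asparagine at fixed positions. Part of the shared bases, and of the matches counted below, is thus set by the search. They were read 5′ to 3′ on the coding strand from RefSeq transcripts of assembly TAIR10.1. Capitals mark the 13 of 30 bases that all 4 genes share.
IDL7: CCggggTCtGgaCCcagcAaGAaAactAAc
IDL6: CCggcgTCtGgaCCcagcAaGAgAatcAAc
IDA: CCtcctTCtGctCCttctAaGAgAcacAAc
IDL1: CCacctTCgGgaCCttccAtGAgAcatAAt
IDL7 and IDL6 had the same base at 26 of the 30 positions. IDL7 matched IDA at 16 and IDL1 at 17, while IDA matched IDL1 at 22. The windows of IDL2, IDL3, IDL4 and IDL5, not shown, matched that of IDL7 at 15 to 18 positions. The longest run of identical bases between the whole transcripts of IDL7 and IDL6 was 21, and that between HAE and HSL2 was 14. In the RefSeq annotation the window of IDL7 lies in a reading frame of 97 codons that is not the annotated coding sequence of AT3G10930, so UMIs of this transcript, counted at its 3′ end, do not tell which frame is translated. IDL6 overlaps another annotated gene, AT5G05290, which was not analysed here, and whether reads were counted by strand is not given in the sources used here.

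The lbd_quad libraries held 844 and 2876 cells used with 7051891 and 15379536 unique molecular identifiers (UMIs, counted transcript molecules), and the WT libraries 1746 and 5061 cells used with 7930684 and 21280667 UMIs. A cell held a median of 6364 and 2522 UMIs in lbd_quad and 2444 and 2090 in WT. Of the targeted genes, LBD12 had 0.335 and 0.142 UMIs per 10000 in lbd_quad and 2.55 and 1.27 in WT. LBD6, LBD36 and LBD15 stayed under 0.1 in every library, with 26, 45 and 181 UMIs in lbd_quad and 44, 40 and 246 in WT. The labels do not give the alleles, so a transcript that is still counted does not test a genotype. Cells fell into 30 clusters, of which 14 took the name of a class from marker genes. Names are rebuilt from markers, such as CASP1 and MYB36 for endodermis or SMB and BFN1 for root cap, and should be read as "-like". The makeup differed: cluster 24, which no marker list named, had 247 and 414 cells in lbd_quad and 27 and 11 in WT, while cluster 13, also unnamed, had 4 and 2 in lbd_quad and 82 and 315 in WT. Summed endodermis markers were 9.40 and 7.22 UMIs per 10000 in lbd_quad and 4.03 and 4.07 in WT, and summed root cap markers were 4.94 and 2.13 in lbd_quad and 7.80 and 4.80 in WT. The endodermis class, in contrast, held 4.98% and 6.99% of cells in lbd_quad and 14.9% and 8.91% in WT. The root cap class held 9.83% and 6.78% in lbd_quad and 6.59% and 5.61% in WT. Marker sums over all cells and class sizes thus did not run alike.

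Of the 4 genes, IDL7 alone reached a mean level of 0.1 UMIs per 10000 over the libraries, the filter used for tests. It averaged 5.12 and 5.62 UMIs per 10000 UMIs of a cell in the lbd_quad libraries, against 1.16 and 0.700 in the WT libraries. Both lbd_quad libraries lay above both WT libraries, as they did for 19.2% of the 9511 genes with a mean of at least 0.1. The ratio of the means was 5.78 and the difference 2.45 on the log2 scale with 0.1 added (SE 0.33, n = 2 each). These levels rest on 3156 and 10929 UMIs of IDL7 in lbd_quad and 784 and 1654 in WT. As a share of all UMIs this was 448 per 1000000 (95% exact Poisson interval 432 to 463) and 711 (697 to 724) in lbd_quad, and 98.9 (92.1 to 106) and 77.7 (74.0 to 81.6) in WT. The intervals cover counting error only. With each cell thinned to 1000 UMIs and shallower cells left out, which kept 844 and 2244 cells in lbd_quad and 1746 and 3843 in WT, IDL7 was found in 27.7% and 25.2% of cells in lbd_quad and 9.79% and 5.31% in WT, so the shares also differed at equal depth. Without thinning the shares were 57.2% and 40.6% in lbd_quad and 19.8% and 12.1% in WT.

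**Figure D1:**
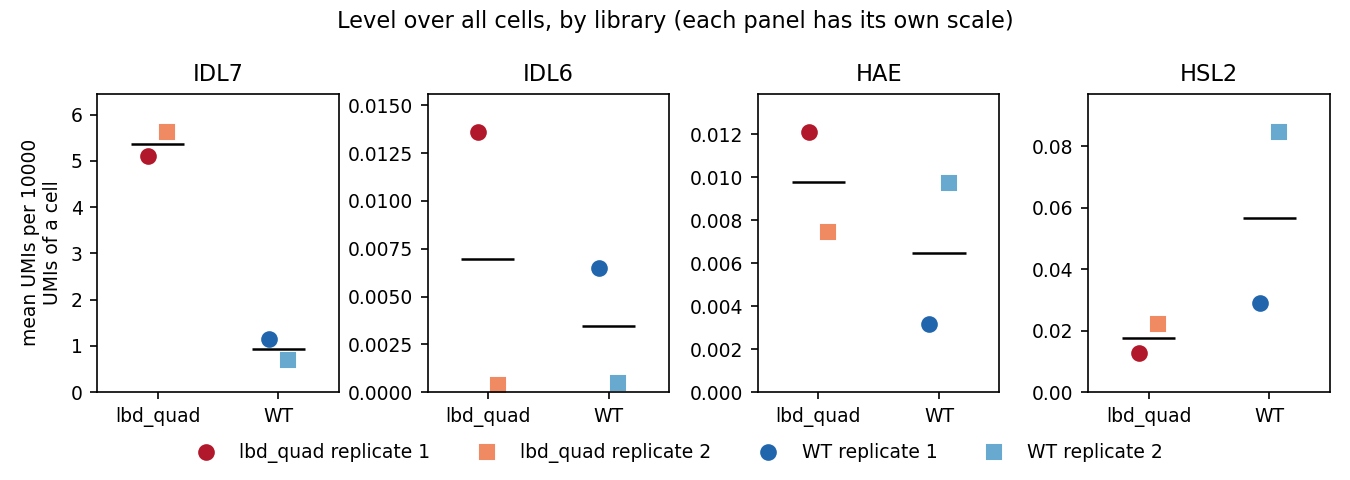
Mean UMIs per 10000 UMIs of a cell (y axis, a separate scale per panel) of the 4 genes in the 2 lbd_quad libraries (left) and the 2 WT libraries (right), with points for libraries and bars for group means. IDL7 stands at 5.12 and 5.62 in lbd_quad and at 1.16 and 0.700 in WT, HSL2 is lower in lbd_quad, and IDL6 and HAE overlap at levels of a few UMIs per library.

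IDL7 was unevenly spread over cell classes. Cluster 24, whose leading genes are the glycine-rich protein gene GRP5 and the lipid transfer protein gene LTP2, held the most IDL7 UMIs in lbd_quad. There IDL7 had 11.3 and 15.0 UMIs per 10000 in lbd_quad and 4.39 and 3.17 in WT, the WT values coming from 27 and 11 cells. IDL7 was kept out of the clustering, but it ranked among the 10 leading genes of this cluster. That rank sets the cluster against all other cells of both genotypes. Most cells of the cluster were lbd_quad, so the rank also carries the genotype difference. Cluster 18, led by ATS3, took no name but was nearest to cortex, with 2 cortex markers raised where a name needs 3. There IDL7 had 8.54 and 7.61 in lbd_quad and 1.46 and 0.940 in WT. In cluster 11, led by histone genes, it had 4.22 and 10.1 in lbd_quad and 1.22 and 1.19 in WT. In cluster 27 it had 2.51 and 8.75 in lbd_quad, against 0.786 in the second WT library, the first WT library having 1 cell there. In cluster 25, also unnamed, it had 11.8 and 3.91 in lbd_quad, the first from 12 cells, against 0.387 in the second WT library, the first WT library having 2 cells there. The lbd_quad libraries were above WT in each of these 5 clusters, as far as cells allowed a level. In clusters 25 and 27 only the second WT library could be compared. Of the 5, a share of all genes with this pattern was taken for cluster 18 alone, at 17.5% of genes tested. The count over the 5 clusters is thus a description and was not set against other genes.

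In several tissue classes the mutant libraries differed from each other. In hair-cell epidermis IDL7 had 5.92 in the second lbd_quad library, from 41 cells, and 0.597 and 0.618 in WT, the first lbd_quad library having 3 cells there. In root cap cells IDL7 had 2.03 and 2.64 in lbd_quad and 0.453 and 0.529 in WT. The genotypes lay in different clusters of this class: cluster 16 held 92.8% and 97.9% of the root cap cells in lbd_quad and 19.1% and 10.2% in WT, where clusters 2 and 20 held the rest. Within cluster 16 IDL7 had 2.18 and 2.56 in lbd_quad and 1.70 and 0.6 in WT, the WT levels resting on 11 and 2 UMIs, so the gap was smaller there than over the class. In phloem it had 1.05 and 2.20 in lbd_quad and 0.0225 and 0.276 in WT. In root cap and phloem both mutant libraries were above both WT libraries, as they were for 27.3% of genes tested in root cap and 16.1% in phloem. In endodermis IDL7 had 0.826 and 3.37 in lbd_quad and 0.556 and 0.429 in WT. Within it, cluster 4 had 0.251 and 3.23 in lbd_quad and 0.578 and 0.294 in WT, which overlap, and cluster 19 had 1.46 and 3.94 in lbd_quad and 0.136 and 1.16 in WT, which do not overlap, as for 17.1% of genes tested there. In pericycle it had 0.276 and 1.92 in lbd_quad and 0.258 and 0.202 in WT, and in cortex 0.457 and 3.15 in lbd_quad and 0.792 and 0.793 in WT. Thus in endodermis, pericycle and cortex the first lbd_quad library lay near or below WT and the second well above. For cortex this depended on the clustering, with a log2 difference of 0.59 here, 2.65 at Leiden resolution 0.5 and 2.84 at resolution 2. Dividing cells also overlapped, with 3.37 and 3.56 in lbd_quad and 5.43 and 0.354 in WT. Each library had at least 10 cells in 12 classes. Both lbd_quad libraries were above both WT libraries in 9 of them, none had both below, and cortex, dividing cells and cluster 0 overlapped. In some of the 9 the first lbd_quad library was little above WT. Cluster 10 had 0.284 and 1.59 in lbd_quad and 0.269 and 0.208 in WT, the first value from 8 UMIs. Non-hair epidermis had 0.452 and 1.99 in lbd_quad and 0.363 and 0.0502 in WT, the first value from 3 UMIs. The first lbd_quad value in pericycle came from 2 UMIs. For comparison, 17.4% of genes tested in endodermis, 17.5% in cluster 18 and 15.6% in cluster 10 had both lbd_quad libraries above WT. No such share was taken for cluster 11, cluster 24, pericycle and non-hair epidermis. The count of 9 was thus not set against other genes.

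**Figure D2:**
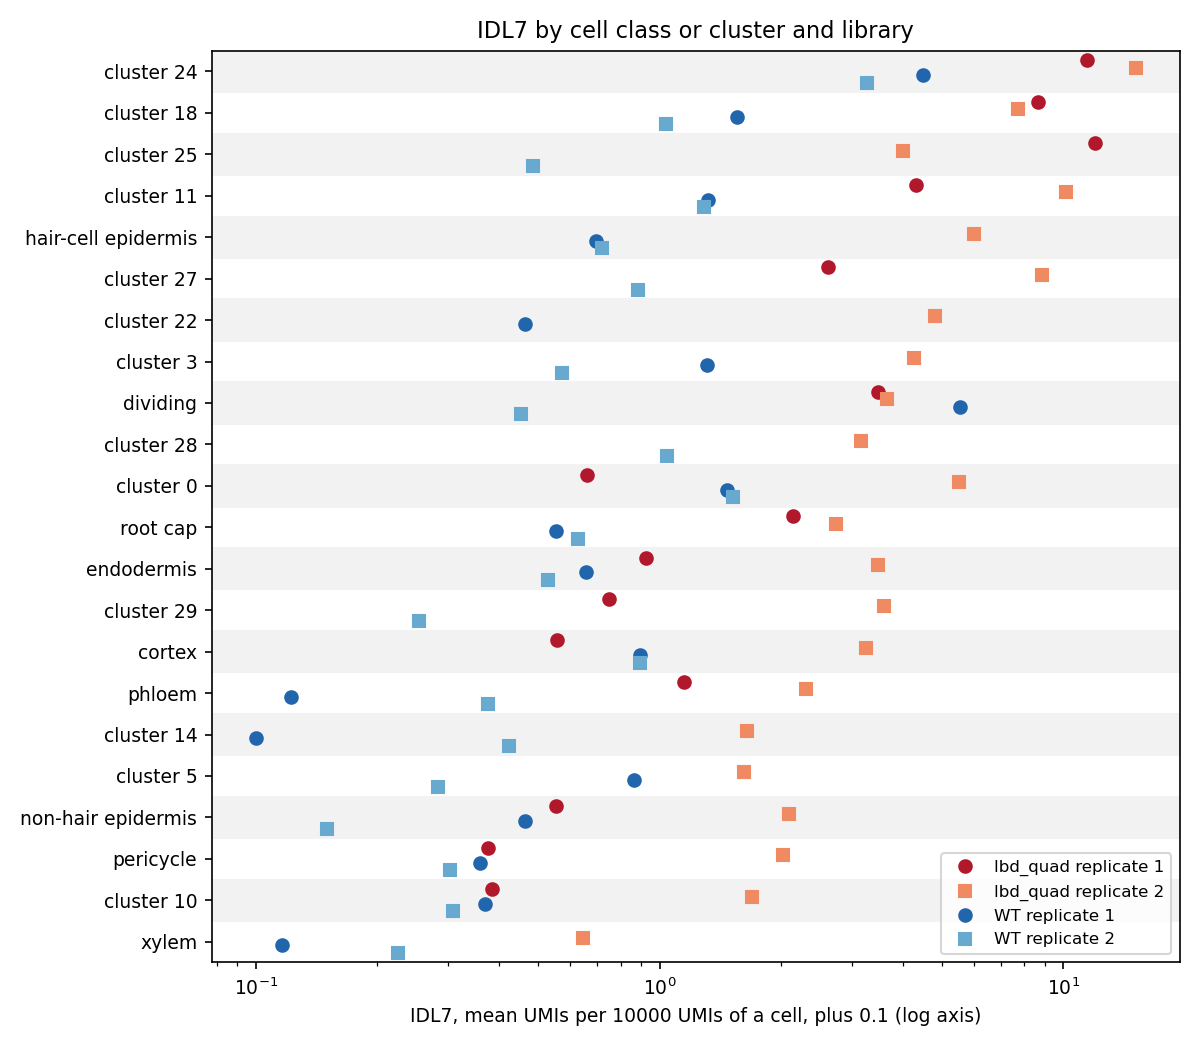
IDL7 level plus 0.1 (x axis, log scale, mean UMIs per 10000 UMIs of a cell) in each class or cluster (rows, ordered by the lbd_quad mean) and library (points, lbd_quad drawn above WT in each row); points from fewer than 10 cells are left out, and so are rows with no such point in 1 of the genotypes. The lbd_quad points lie to the right of WT in most rows, while in cortex and cluster 0 the first lbd_quad library lies left of both WT libraries.

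Where the IDL7 molecules sat differed between genotypes. Cluster 24 held 60.9% and 44.4% of all IDL7 UMIs of the lbd_quad libraries and 18.5% and 1.21% of those of the WT libraries. Its share of the cells was 29.3% and 14.4% in lbd_quad and 1.55% and 0.217% in WT. In WT the largest shares were in cluster 13, led by the genes sks15 and AGP31, with 21.6% and 27.1% of the IDL7 UMIs, against 0.253% and 0.0915% in lbd_quad. The IDL7 level of cluster 13 in WT was 5.25 and 2.82 UMIs per 10000. With cluster 24 left out, the log2 difference of IDL7 over all cells was 1.76 rather than 2.45. The 12 classes with at least 10 cells per library held 60.9% to 75% of a library's cells. Over these classes the log2 difference of IDL7 was 2.83 with the makeup as found and 1.76 with the same makeup given to all libraries. The size of this drop depended on the clustering. The values were 1.843 as found and 1.724 with the same makeup at Leiden resolution 0.5, and 2.701 and 2.035 at resolution 2. In bulk or over all cells, more cells of a type and more RNA per cell cannot be told apart. Here the makeup differed between the genotypes. The level within clusters differed in some and overlapped in others, such as cortex and dividing cells. How much each adds to the difference over all cells was not tested.

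**Figure D3:**
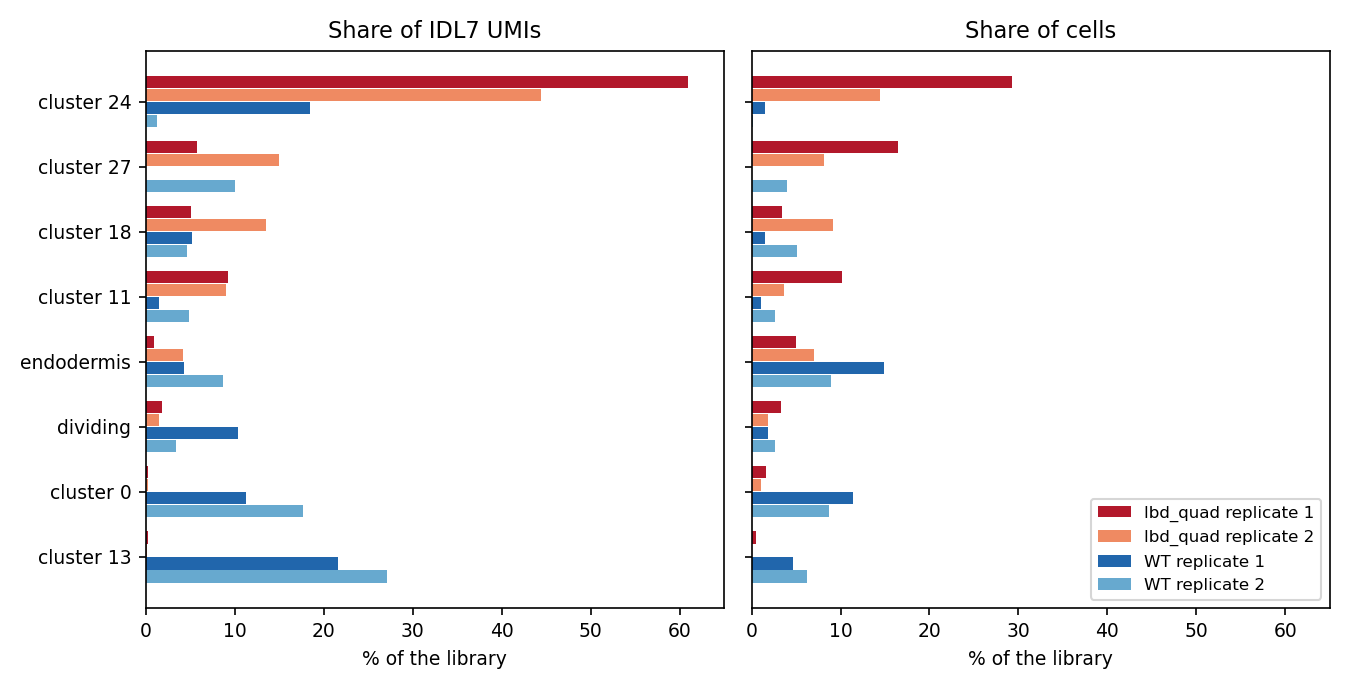
Percent of each library's IDL7 UMIs (left) and of its cells (right) in the 8 classes or clusters with at least 8% of the IDL7 UMIs of a library, with bars for the libraries, lbd_quad above WT. Cluster 24 holds 60.9% and 44.4% of the IDL7 UMIs in lbd_quad and 18.5% and 1.21% in WT, and cluster 13 holds 21.6% and 27.1% in WT and under 1% in lbd_quad.

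A minority of cells carried most of the transcript. The 10% of cells with the most IDL7 held 59.8% and 79.9% of its UMIs in lbd_quad and 78.3% and 93.5% in WT, and the highest single cells had 110 and 112 UMIs in lbd_quad and 56 and 37 in WT. Droplet data can hold free RNA, which enters cells that do not make it. The source of such RNA is not known here, so the ratios of IDL7 to GRP5 that follow are a description. In the second lbd_quad library there were 2.17 IDL7 UMIs per GRP5 UMI in cluster 24, 1.53 in cluster 11, 2.70 in cluster 10, 41.3 in endodermis, 90.9 in cluster 27 and 133.8 in cluster 18. In the first lbd_quad library the ratio was 3.18 in cluster 24, 24.2 in cluster 11 and 9 in cluster 27. GRP5 had 0 UMIs there in cluster 10, endodermis and cluster 18, beside 8, 29 and 159 UMIs of IDL7. Thus in clusters 10 and 11 the ratio was close to that of cluster 24 in the second library. In the first library cluster 11 was above it, and the 8 IDL7 UMIs of cluster 10 are too few to compare. In endodermis, cluster 27 and cluster 18 IDL7 stood above the cluster 24 ratio in both libraries. Dividing cells were below it in the first library, at 0.202 from 59 IDL7 and 292 GRP5 UMIs, and at 5.32 in the second. Root cap had 9.75 in the first library and 8.6 in the second. How much of the IDL7 level in any class is free RNA was not tested.

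The genes whose levels ran most like IDL7 over 81 cluster-by-library means were the calcium sensor gene CML37 (Pearson r 0.774), the mitochondrial carrier gene DIC2 (0.749), AT3G02840 (0.735), AR781 (0.731) and the zinc-finger repressor gene ZAT10 (0.710). The 81 points come from 30 clusters and 4 libraries and share depth and library, so r is a description.

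IDL6 was barely counted. It had 5 and 1 UMIs in lbd_quad and 4 and 1 in WT, or 0.0136 and 0.000376 UMIs per 10000 in lbd_quad and 0.00649 and 0.000476 in WT. The groups overlapped, and no class held enough UMIs for a level. The most similar gene, CNI1, reached r = 0.429, which at 11 UMIs cannot be read. Of the 7 family genes whose window was compared with that of IDL7, IDL6 matched it at the most bases and was hardly counted in either genotype.

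Among the other IDA family peptides, 5 of 6 were measured and 1, IDL1, passed the filter. None was called by limma over all cells, where 0.389% of 9511 genes were called. IDL1 had 0.741 and 0.409 UMIs per 10000 in lbd_quad and 0.713 and 0.292 in WT, which overlap (log2 difference 0.21, SE 0.41, limma adjusted p 0.946). In root cap it had 3.26 and 1.83 in lbd_quad and 1.09 and 0.706 in WT, where the genotypes again lay in different clusters. Within cluster 16 it had 3.29 and 1.85 in lbd_quad and 0.667 and 0.391 in WT, from 304 and 198 UMIs in lbd_quad and 6 and 3 in WT. In WT cluster 2, which holds most WT root cap cells, it had 1.21 and 1.03. In the first WT library IDL1 reached 3.27 in cluster 24. IDA itself had 12 and 27 UMIs in lbd_quad and 1 and 1 in WT, 23 of the 39 mutant UMIs lying in cluster 24. IDL5 had 3 and 5 UMIs in lbd_quad and 1 and 2 in WT, and IDL2 had 5 and 1 in lbd_quad and 0 and 1 in WT. These counts are too low for a level by class. IDL3 was not analysed here.

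Of the receptors, HAE was close to the limit of detection. It had 4 and 9 UMIs in lbd_quad and 2 and 15 in WT, or 0.0121 and 0.00746 UMIs per 10000 in lbd_quad and 0.00319 and 0.00973 in WT. The libraries overlapped, and no class held more than 3 HAE UMIs in a library. Its most similar gene, AT4G21910, reached r = 0.517, which at 30 UMIs cannot be read.

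HSL2 was the more counted receptor, with a lower mean level over all cells in both lbd_quad libraries. It had 13 and 36 UMIs in lbd_quad and 35 and 188 in WT, or 0.0127 and 0.0223 UMIs per 10000 in lbd_quad and 0.0289 and 0.0845 in WT. Both lbd_quad libraries lay below both WT libraries, as they did for 17.8% of the genes tested, and HSL2 itself was under the filter. The ratio of the means was 0.309 and the log2 difference -0.39 (SE 0.27, n = 2 each). The WT libraries differed from each other by more than the lbd_quad libraries did. Without the second WT library the log2 difference was -0.13. As a share of all UMIs HSL2 took 1.84 per 1000000 (95% exact Poisson interval 0.982 to 3.15) and 2.34 (1.64 to 3.24) in lbd_quad, and 4.41 (3.07 to 6.14) and 8.83 (7.62 to 10.2) in WT.

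Endodermis held 20 of the 49 HSL2 UMIs in lbd_quad and 87 of the 223 in WT, or 40.8% and 39.0%. By library these were 5 and 15 in lbd_quad and 19 and 68 in WT. Cluster 25 held 6 in lbd_quad and 35 in WT, cluster 10 held 5 in lbd_quad and 31 in WT, and cluster 14 held 2 in lbd_quad and 28 in WT. The level in endodermis was 0.105 and 0.0886 UMIs per 10000 in lbd_quad and 0.115 and 0.333 in WT, with lbd_quad below WT as for 18.3% of genes tested in that class. The gap between the higher lbd_quad library and the lower WT library was small beside that between the WT libraries. Its cluster 4 overlapped, with 0.129 and 0.0913 in lbd_quad and 0.110 and 0.336 in WT, and its cluster 19 had 0.0786 and 0.0781 in lbd_quad and 0.210 and 0.318 in WT from 3 and 3 UMIs in lbd_quad and 3 and 28 in WT, with lbd_quad below WT as for 19.5% of genes there. Cluster 10 has the auxin carrier gene LAX3 among its 10 leading genes. HSL2 had 0.0874 and 0 there in lbd_quad and 0.174 and 0.182 in WT, with lbd_quad below WT as for 19.6% of genes. The pericycle held 0 and 5 UMIs in lbd_quad and 1 and 17 in WT. In root cap HSL2 had 0 UMIs in 677 cells, which allows a share of cells with a UMI of up to 0.443%. It also had 0 in 622 hair-cell epidermis cells, which allows up to 0.482%, and 0 in 315 non-hair epidermis cells, which allows up to 0.952%. The root cap class, where the IDL1 level was high, was thus one in which HSL2 was not detected at this depth. With the same cell makeup given to all libraries, the log2 difference of HSL2 was -0.29, against -0.49 as found over the same 12 classes.

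**Figure D4:**
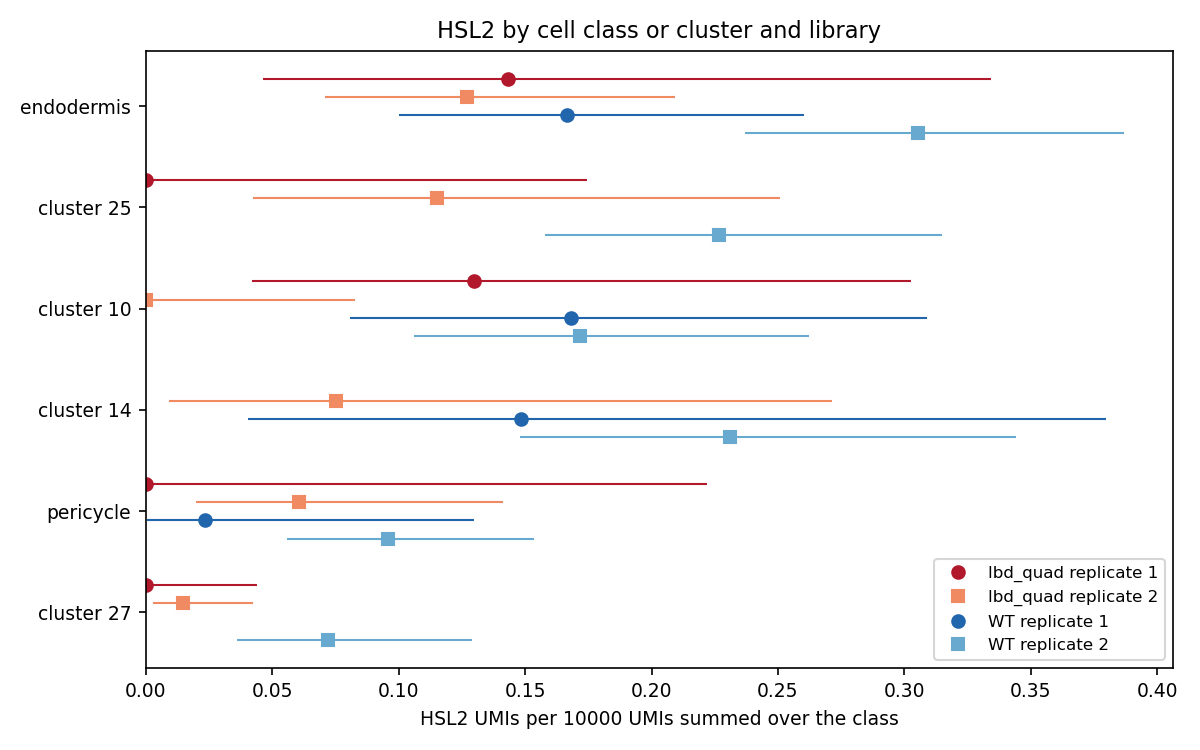
HSL2 UMIs per 10000 UMIs summed over a class (x axis) for the classes and clusters with at least 10 HSL2 UMIs, with points for libraries of at least 10 cells there, lbd_quad above WT, and lines for 95% exact Poisson intervals. The second WT library is highest in endodermis, and in the other rows the intervals of the lbd_quad and WT libraries mostly overlap.

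Few cells held both IDL7 and HSL2. HSL2 was found in 11 and 32 cells of lbd_quad and 29 and 164 cells of WT, and 4 and 11 of these cells in lbd_quad and 1 and 23 in WT also had IDL7. That is 36.4% and 34.4% of HSL2 cells in lbd_quad and 3.45% and 14.0% in WT, beside 57.2% and 40.6% of all cells in lbd_quad and 19.8% and 12.1% in WT. HSL2 cells were deep, with a median of 17170 and 9746 UMIs in lbd_quad and 9722 and 9088 in WT. The HSL2 level ran most like that of AT3G52920 (r 0.692), AT5G38010 (0.678), the methyl esterase gene MES7 (0.665), AT3G06590 (0.652) and AT5G40630 (0.647) over the same 81 points.

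Of 7 other receptors and co-receptors, 5 passed the filter and none was called over all cells. Their median log2 difference was -0.04, beside 0.0061 for all genes tested. SOBIR1, a receptor kinase that acts in immunity and in the control of organ shedding, had 1.21 and 0.903 UMIs per 10000 in lbd_quad and 0.705 and 0.577 in WT (log2 difference 0.64, SE 0.28, limma adjusted p 0.633). In cluster 24 SOBIR1 had 2.15 and 2.52 in lbd_quad and 0.453 and 0.526 in WT, the WT levels resting on 13 and 2 UMIs. BAK1, a SERK co-receptor, had 0.391 and 0.428 in lbd_quad and 0.471 and 0.634 in WT (limma adjusted p 0.847). SERK1 had 0.0998 and 0.153 in lbd_quad and 0.0785 and 0.199 in WT, and CST, a cytoplasmic kinase that restrains organ shedding, had 0.138 and 0.119 in lbd_quad and 0.144 and 0.123 in WT. Both overlap.

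Of 10 signalling genes and regulators, 4 passed the filter, none was called, and their median log2 difference was -0.11. MPK3 had 0.237 and 0.0780 UMIs per 10000 in lbd_quad and 0.105 and 0.0543 in WT, and MPK6 had 0.343 and 0.216 in lbd_quad and 0.372 and 0.287 in WT. MKK5 had 0.137 and 0.108 in lbd_quad and 0.125 and 0.132 in WT. These 3 overlapped. NEV, a regulator of membrane traffic needed for organ shedding, had 0.812 and 0.807 in lbd_quad and 0.926 and 0.938 in WT (limma adjusted p 0.932), so it was slightly lower in both lbd_quad libraries.

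Of 6 wall enzymes 3 were measured, and XTH23 and EXPA17 passed the filter. EXPA17, an expansin, had 0.315 and 0.205 UMIs per 10000 in lbd_quad and 7.50 and 1.85 in WT (log2 difference -3.44, SE 0.57, limma adjusted p 0.0648). It was not called. It was called when any 1 of the 4 libraries was left out (limma adjusted p 3.34e-13 to 0.00753), but such a fit takes its spread from the other genotype alone and assumes that the lone library varies likewise. EXPA17 is a leading gene of cluster 3, which held 3 and 12 cells of lbd_quad and 163 and 278 of WT. XTH23, a xyloglucan-modifying enzyme, was not called over all cells, but was without the second WT library (limma adjusted p 0.0255), a fit with the same limit. It rose in endodermis, where 0.902% of 8541 genes were called. It had 2.51 and 1.07 there in lbd_quad and 0.116 and 0.365 in WT (log2 difference 2.46, SE 0.48, limma adjusted p 0.0397). The call was lost without the first WT library (adjusted p 0.145) or the second (0.0671), with no filter on low values (0.672) and at the coarser and finer clustering (0.0550 and 0.0592). XTH23 lay mainly in cluster 19, at 5.27 and 4.49 in lbd_quad and 1.41 and 1.28 in WT (log2 difference 1.79, limma adjusted p 0.196, with 0.0774% of genes called there). That cluster made up 47.6% and 20.4% of endodermis cells in lbd_quad and 5.00% and 15.5% in WT. In cluster 4 XTH23 had 0 and 0.194 in lbd_quad and 0.0479 and 0.198 in WT, which overlap, and 0.0589% of genes were called. In the other classes tested the share of genes called was 3.60% in root cap, 0.370% in cluster 10, 0.267% in cortex, 0.208% in cluster 18, 0.0569% in dividing cells and 0.0338% in phloem, and of the listed genes LBD12 alone was called there, lower in root cap and cluster 10 as it was in endodermis. The LBD12 calls were lost with no filter on low values and without the first WT library in all 3 classes, without the second WT library in root cap and cluster 10, and without the second lbd_quad library in root cap. Within root cap cluster 16 LBD12 had 0.623 and 0.603 in lbd_quad and 3.52 and 2.03 in WT. ADPG2, a polygalacturonase of organ shedding, had 13 UMIs in all, and ADPG1, QRT2 and PGLR were not analysed here.

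Of the early stress and wound genes none was called. Of 14 measured genes 11 passed the filter, and 6 of them had both lbd_quad libraries above both WT libraries, beside 19.2% of all genes tested. This list, like the others, was chosen with earlier results of these data known. The count beside that share is thus a description and not a test. The other 5, WRKY33, WRKY53, ERF104, JAZ1 and JAZ10, overlapped. The median of the 11 log2 differences was 0.72. ZAT10 had 6.52 and 3.59 UMIs per 10000 in lbd_quad and 2.50 and 0.900 in WT (log2 difference 1.61, SE 0.50, limma adjusted p 0.325). WRKY40 had 4.35 and 2.08 in lbd_quad and 1.78 and 0.940 in WT (limma adjusted p 0.499), and ZAT12 had 7.43 and 11.2 in lbd_quad and 5.89 and 5.16 in WT (0.663). JAZ1, a jasmonate repressor gene, had 4.99 and 3.00 in lbd_quad and 3.40 and 2.63 in WT, which overlap. Within cluster 24 the libraries of ZAT10 and ZAT12 overlapped, while those of IDL7 did not, with WT values from 27 and 11 cells. There ZAT10 had 11.0 and 6.68 in lbd_quad and 12.98 and 6.30 in WT. ZAT12 had 11.0 and 16.2 in lbd_quad and 16.4 and 15.7 in WT. No share of all genes was taken for this cluster. The difference between IDL7 and these genes was not tested. Over all cells ZAT10 was called without the second lbd_quad library (limma adjusted p 0.0458) or the first WT library (0.000195), and WRKY40 without the first WT library (0.0269), in fits where 1 genotype has a single library.

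Of the PEP danger peptides and their receptors, 3 of 5 genes passed the filter, none was called, and their median log2 difference was 0.75. PROPEP1, a precursor of a peptide released on damage, had 0.450 and 0.246 UMIs per 10000 in lbd_quad and 0.203 and 0.121 in WT (limma adjusted p 0.578). PROPEP3 had 0.789 and 0.187 in lbd_quad and 0.378 and 0.0324 in WT, and the receptor gene PEPR1 had 0.703 and 0.302 in lbd_quad and 0.246 and 0.348 in WT. Both overlap, and in both the first lbd_quad library is the highest of the 4. PROPEP3 was called, higher in lbd_quad, without the first WT library (limma adjusted p 0.000105), a fit whose spread comes from the lbd_quad pair alone. With all 4 libraries its log2 difference was 1.00. Its SE of 1.23 comes from its own libraries alone and is not comparable with the SEs given beside a limma adjusted p.

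**Figure D5:**
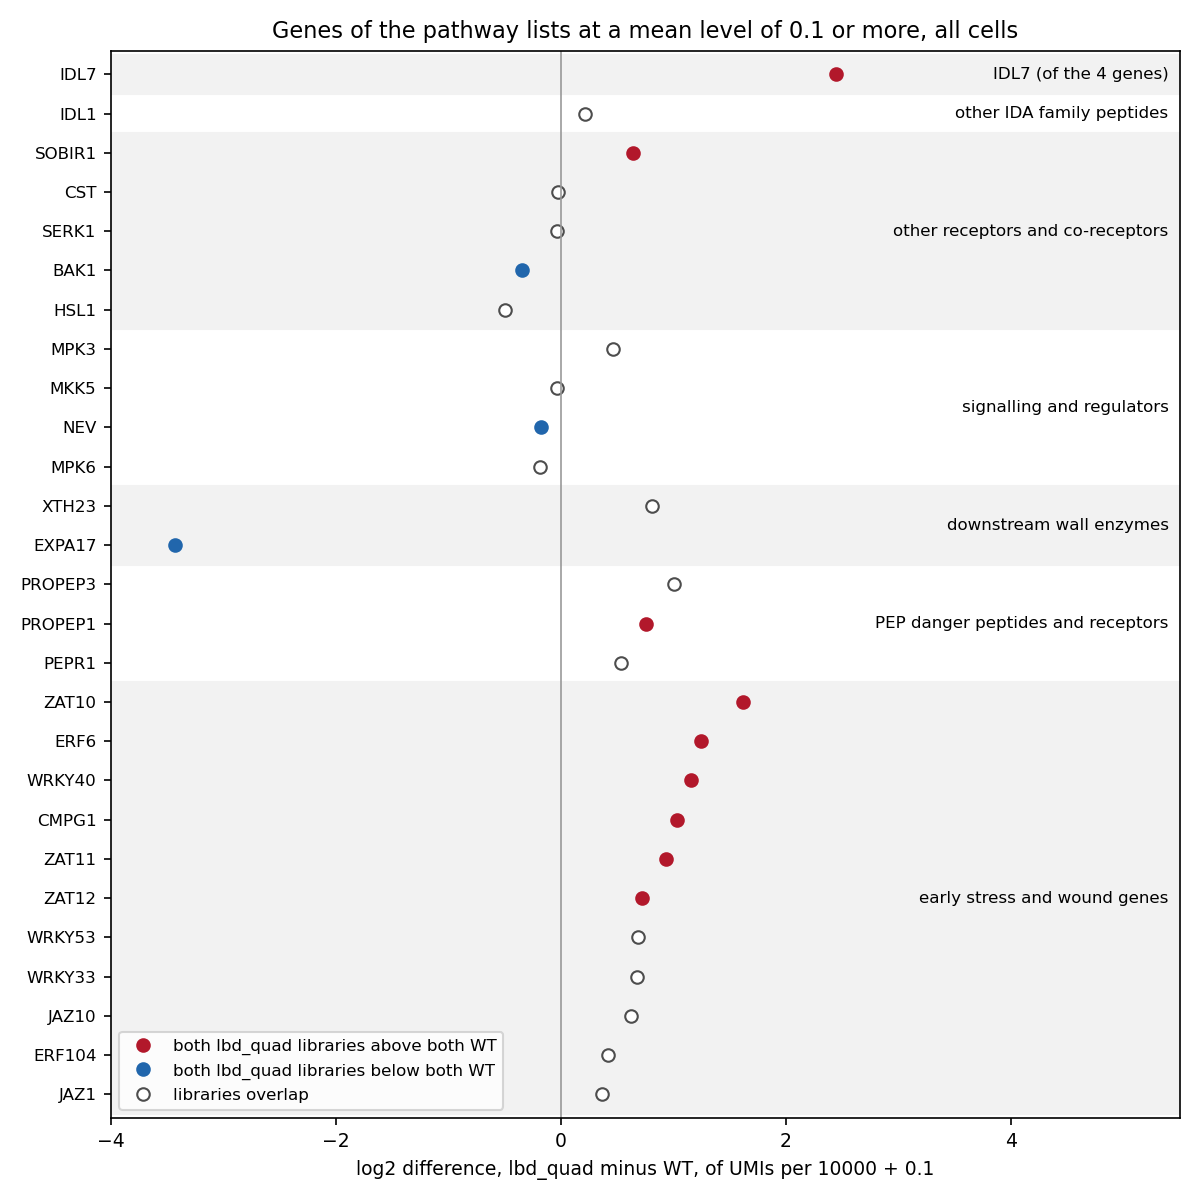
Log2 difference (x axis, lbd_quad minus WT, of UMIs per 10000 plus 0.1 over all cells) of IDL7 and of the genes of the pathway lists with a mean of at least 0.1 (rows). Red points have both lbd_quad libraries above both WT libraries, blue points have both below, and open points overlap; IDL7 stands at 2.45, the 11 stress and wound genes lie between 0.36 and 1.61, and EXPA17 is at -3.44.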

How the data were processed

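The deposited matrix holds natural log values per gene and cell: taking the exponential and subtracting 1 gave sums of 10000 in every cell, and 100% of values were whole multiples of the smallest value of their cell within 0.01, so UMI counts per cell were recovered. Libraries were made with the 3' v2 droplet kit, per the labels. Cell Ranger 7.0.1 and Seurat are named in the submitters' processing notes without a role. The genome build, cell filters and doublet removal are not given in the sources used here. Of 13844 cell columns, 10529 matched the 4 samples and the other 3315 were not used. At most 3 barcodes were shared between any 2 libraries. Scrublet marked 2 cells (0.019%), too few for a working caller, so doublets may remain, and 10527 cells were kept.

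Cells were clustered with scanpy 1.11.5 (2000 variable genes without the members and listed genes, 40 components, 15 neighbours, Leiden resolution 1). A cluster took a class name with at least 3 markers raised 2-fold, each detected in 10% or more of its cells. Levels are means over cells of UMIs per 10000. Differences were tested by limma 3.58.1 (R 4.3.3, trend) on log2(level + 0.1) of library means, lbd_quad minus WT. Genes needed a mean of at least 0.1, with Benjamini-Hochberg adjustment over all genes at 0.05. The limma test was repeated in classes with at least 20 cells per library. The fit was also run on simulated libraries of independent spread. That simulation held no cell makeup and no spread shared by replicates, so it cannot show their effect on the calls. Fold changes on this scale understate those of low genes. An SE beside a limma adjusted p is that of the limma fit, which borrows spread from other genes. The SEs of IDL7, HSL2 and PROPEP3 use the libraries of the gene alone.

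The members, the lists and the minimum of 10 cells for a common makeup were chosen with earlier results of these data known. Named genes are the members, list genes that were called, up to 4 list genes of the highest level, and the 5 genes most like each member. Symbols come from RefSeq (TAIR10.1). Alternatives changed the pseudocount, filter, scaling, depth, clustering, replicate block and libraries.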

Additional observations from a re-analysis of the deposited data

How the results depend on the processing

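The log2 difference of IDL7 over all cells (2.45) ran from 2.12 to 2.77 with each library left out in turn. It was 1.73 with a pseudocount of 1 and 1.76 without cluster 24, an alternative chosen after seeing the data. It stayed positive under the 13 alternatives run, but the filter and the replicate block cannot change it. Because the genotypes did not overlap, leaving out a library or changing the pseudocount cannot turn its sign. HSL2 (-0.39) was at -0.65 to -0.13 with a library left out, -1.16 with a pseudocount of 0.01 and -0.054 with a pseudocount of 1. Its sign could not turn in these settings either, for the same reason. IDL6 (0.046) and HAE (0.045) rest on 11 and 30 UMIs and came to 0.25 and 0.28 with a pseudocount of 0.01, and ran from -0.043 to 0.14 and from 0.0003 to 0.089 with a library left out. In cortex the log2 difference of IDL7 (0.59) was 2.65 at Leiden resolution 0.5 and 2.84 at resolution 2. Depth limits IDL6, HAE and HSL2 by class, and the cause of the changes below was not tested.

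Counts of genes called by limma depended strongly on the setting. Over all cells there were 37 calls, against 21 with a pseudocount of 1, 12 with median-of-ratios size factors, 1 with library sums, 0 with no filter (1559 genes at an unadjusted p under 0.05) and 164 to 290 with a library left out, where the lone library of a genotype is assumed to vary like the other pair. With no filter, calls fell to 0 in endodermis (of 77), 0 in phloem (of 3) and 0 in cluster 18 (of 18), with 1217, 866 and 663 genes at an unadjusted p under 0.05, to 1 in cortex (of 22) and 1 in cluster 10 (of 31), and to 27 in root cap (of 276), and came to 19 in dividing cells (of 5). Endodermis clusters 4 and 19 alone gave 5 and 6 calls. Cortex gave 64 calls at resolution 0.5 and 46 at resolution 2, and phloem 0 at resolution 2 (674 at an unadjusted p under 0.05). With a library left out, calls ran from 21 to 739 in endodermis, 74 to 243 in root cap, 0 to 1 in cortex, 0 to 153 in phloem, 0 to 8 in dividing cells, 1 to 256 in cluster 10 and 0 to 24 in cluster 18.

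The replicate numbers are shared by both genotypes, but 2 pairs do not show that they pair the libraries (the correlation of the replicate deviations between genotypes was 0.514 over 9511 genes). With a replicate block there were 506 calls over all cells, 35 in endodermis, 938 in root cap, 6 in cortex, 333 in phloem, 94 in dividing cells, 468 in cluster 10 and 196 in cluster 18. Over all cells the block called LBD12 (limma adjusted p 0.000284), EXPA17 (0.000671), ZAT10 (0.00636), PROPEP3 (0.0138), WRKY40 (0.0184), XTH23 (0.0442) and PROPEP1 (0.0474), each in the direction found without it, and in endodermis it did not call XTH23 (0.120) or LBD12 (0.0526).

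The sign turned for CST with library sums (0.19), with cells of at least 2000 UMIs (0.11) and with thinned cells (0.082), for MKK5 with thinned cells (0.16), none of them called, and for XTH23 in endodermis cluster 4 (-0.29). With a library left out the log2 difference ran from -0.31 to 0.74 for IDL1, -0.43 to 0.051 for MPK6, -0.41 to 0.33 for SERK1, -0.094 to 0.033 for CST and -0.13 to 0.053 for MKK5.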
